A study of Homo sapiens with 9 samples.

Results

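The genes described here encode 10 core proteins of stress granules: G3BP1, G3BP2, CAPRIN1, UBAP2L, TIA1, TIAL1, FMR1, FXR1, PABPC1 and ATXN2. They were taken as a fixed list of symbols, and each matched 1 of the 57820 gene identifiers in the count tables. All 10 of 10 passed the expression filter of at least 1 CPM (counts scaled to library size with TMM factors) in at least 2 libraries, which 16155 genes passed in all.

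Stress granules are assemblies of messenger RNA and protein that form in the cytoplasm when translation initiation stalls, and they dissolve when translation resumes. G3BP1 and its paralogue G3BP2 nucleate them through RNA binding and dimerisation, CAPRIN1 and UBAP2L bind the G3BP proteins and promote assembly, and TIA1 and TIAL1 bring prion-like regions that self-associate. FMR1 and FXR1 are RNA-binding proteins of 1 family, ATXN2 binds the poly(A)-binding protein PABPC1, and PABPC1 coats the tails of the messages held in the granule. DDX3X is itself a DEAD-box RNA helicase that joins stress granules and acts in translation initiation.

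The study lowered DDX3X in Daoy, a human medulloblastoma cell line (medulloblastoma is a cerebellar tumour), and expressed wild type or mutant DDX3X in the knockdown cells. The libraries labelled mutDDX3X (n = 3, 1 each for G302V, R534H and P568L) and the library labelled wtDDX3X (n = 1) came from cells that carry the hairpin against the 3' untranslated region and a stably transfected FLAG-tagged DDX3X in the pCMV10-3xFlag vector. The shDDX3X libraries (n = 3) carried a doxycycline-inducible hairpin in tet-pLKO-puro, directed at the 3' untranslated region in shDDX3X 1 and 3 and at the open reading frame (ORF) in shDDX3X 2. The control libraries (n = 2) came from parental cells and from vector control cells. The labels give 1 treatment for every library, doxycycline at 1 µg/ml for 72 h, without saying whether both controls were given the drug. The knockdown populations were polyclonal, so they hold cells with different integrations. The labels do not say that libraries of 1 group came from separate cultures, so the p-values measure only the spread between these libraries, which may be technical. Poly(A) RNA of whole cultures was counted, so fewer cells expressing a gene and less RNA per cell cannot be told apart.

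Counts in genes numbered 8216568 to 13030572 per library, and an absent count allows a level of up to 0.230 to 0.365 CPM, depending on the library (3 counts of the total, counting error only). The libraries fall into series A (parental control, shDDX3X 1 and 2) and series B (the other 6) by the numbers in their deposited names, and unaligned reads made up 19.6% to 24.0% in series B and 5.24% to 5.73% in series A. DDX3X was at 249.0, 138.9 and 182.5 CPM in the shDDX3X libraries, against 683.2 and 452.5 CPM in parental and vector cells. It was at 197.8, 211.4 and 241.8 CPM in G302V, R534H and P568L and at 195.2 CPM in wtDDX3X, so no library labelled as re-expressing DDX3X had counts near the control level. Gene counts do not separate RNA of the construct and of the endogenous gene. A gene's level in a library, relative to the other libraries, also varied with the GC content of its transcript (a GC trend), with Spearman correlations across 11590 genes from -0.711 in parental cells to 0.575 in shDDX3X 3. Of the markers of the cerebellar granule lineage, ZIC1 was at 12.6 to 24.3 CPM and PAX6 at 22.3 to 32.5 CPM, while ATOH1 and BARHL1 had no count in 8 of the 9 libraries. The leukocyte marker PTPRC had none in 7.

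Every stress granule gene was well expressed, with at least 356 counts (FMR1, in the lowest library) and at most 14365 (PABPC1, in the highest). On a scale corrected for gene length (TPM, counts per exon length scaled to a common library total), PABPC1 stood first with a median of 800.1 TPM over the 9 libraries and a range of 681.2 to 989.2 TPM. CAPRIN1 followed at 294.6 TPM, UBAP2L at 254.7 TPM and G3BP1 at 146.3 TPM. G3BP2 had a median of 80.5 TPM and FXR1 of 72.4 TPM. The lower end held TIAL1 at 44.1 TPM, TIA1 at 36.7 TPM, FMR1 at 24.3 TPM and ATXN2 at 21.4 TPM. The ranges of some neighbours in this order overlapped, namely CAPRIN1 with UBAP2L, G3BP2 with FXR1, TIAL1 with TIA1, TIA1 with FMR1 and FMR1 with ATXN2. Within each library G3BP2 still lay above FXR1 in 9 of 9, CAPRIN1 above UBAP2L in 8, TIAL1 above TIA1 in 8 and FMR1 above ATXN2 in 7.

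**Figure D1:**
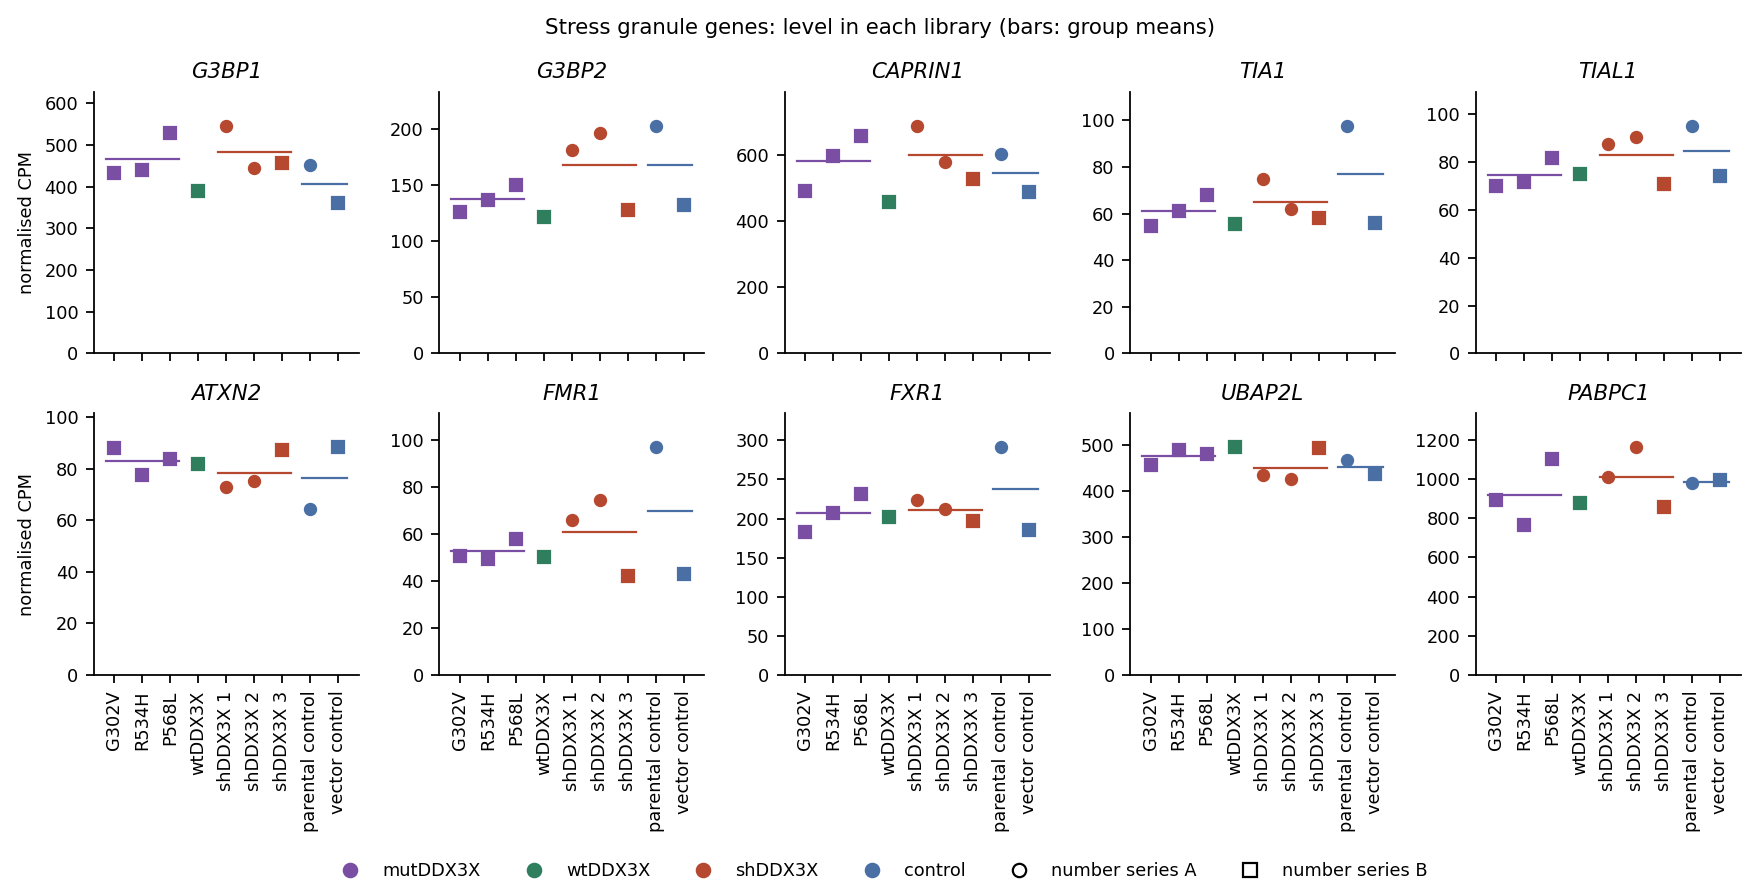
Normalised CPM of each stress granule gene (vertical axes, starting at 0) in each of the 9 libraries (horizontal axes); colours give the group, circles series A, squares series B, and bars the group means (none for the single wtDDX3X library). In every panel the shDDX3X libraries overlap the controls, and FMR1 and G3BP2 lie lower in the squares than in the circles.

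Knockdown of DDX3X was first compared with control to ask whether the messages of granule proteins shift with the helicase. None of the 10 genes was called at an adjusted p of 0.05 (edgeR's quasi-likelihood test, Benjamini-Hochberg adjustment over 16155 genes, number series as a term), beside 0.675% of all genes tested (109, 46 of them higher and 63 lower). The shDDX3X and control libraries overlapped for every member, while they did not overlap for 20.9% of all genes. The members' log2 fold changes ran from -0.29 to 0.22, 4 above 0 and 6 below, with a median of -0.05 (-0.01 for all genes) and a median absolute value of 0.10 (0.32 for all genes). The SE was 0.14 to 0.19 for the members, against a median of 0.26 for all genes, which include weakly expressed ones. No background of similar expression was taken, so these contrasts do not show that the members are unusually stable. The 95% confidence intervals of all 10 genes lay within a 2-fold change either way, the extremes being 0.615 (TIA1) and 1.51 (G3BP1). Changes inside a gene's own interval are left undecided by these libraries.

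Among the nucleators, G3BP1 was at 545.8, 445.3 and 457.3 CPM in shDDX3X 1, 2 and 3, against 451.4 and 360.5 CPM in parental and vector cells. Its mean was 482.8 ± 54.9 CPM (SD, n = 3) in shDDX3X and 406.0 ± 64.3 CPM (SD, n = 2) in control, a log2 fold change of 0.22 ± 0.16 (SE, edgeR adjusted p = 0.464). The ORF hairpin library lay just below its parental control and the other knockdown libraries above their own controls. With each library's GC trend removed, the log2 fold change was 0.41 for G3BP1 (adjusted p = 0.128), and -0.07 for FMR1, -0.07 for TIA1, -0.01 for FXR1, 0.09 for TIAL1 and 0.05 for G3BP2, with none called. The log2 ratios of G3BP1 to the control of the same series were then 0.53, 0.27 and 0.42 in shDDX3X 1, 2 and 3. G3BP2 was at 181.4, 196.5 and 128.2 CPM in shDDX3X 1, 2 and 3, against 203.2 and 132.8 CPM in parental and vector cells. Each knockdown library was slightly below the control of its own series, at ratios of 0.892, 0.967 and 0.965, and the log2 fold change was -0.08 ± 0.15 (SE, edgeR adjusted p = 0.795). After removal of the GC trend, the log2 ratios of G3BP2 in these libraries were 0.02, 0.18 and -0.02.

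CAPRIN1, which binds G3BP1 and promotes its assembly, was at 688.2, 579.8 and 529.0 CPM in shDDX3X, against 601.8 and 488.0 CPM in control. The values interleave, and the log2 fold change was 0.09 ± 0.17 (SE, edgeR adjusted p = 0.795). UBAP2L, which also binds G3BP1 and is needed for granule assembly, was at 433.4, 424.9 and 491.7 CPM in shDDX3X, against 467.2 and 435.2 CPM in control. It had the narrowest spread of the 10, an SD of 0.07 log2 units within series (0.25 for the median gene with a mean of at least 5 CPM, and 0.17 for the median member). Its log2 fold change was 0.00 with a 95% interval from -0.31 to 0.32, a fold of 0.806 to 1.25. TIAL1 (SD 0.08), ATXN2 (0.09) and G3BP2 (0.10) also varied little within series.

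TIA1, which represses translation and also regulates splicing, was at 74.9, 62.0 and 58.1 CPM in shDDX3X, against 97.6 and 56.1 CPM in control. The parental library stood above the other 8, and the vector library lay below all 3 knockdown libraries. The ratio of shDDX3X 2 to parental cells, 0.635, was the only one of the members' ratios beyond 1.5-fold against a control of the same series. In series B the ratio was 1.04, and the fitted log2 fold change of -0.28 (SE 0.19, edgeR adjusted p = 0.429) became 0.05 without the parental library and -0.52 without the vector library. Its paralogue TIAL1 was at 87.7, 90.6 and 70.7 CPM in shDDX3X, against 95.2 and 74.4 CPM in control. The knockdown libraries were at 0.921, 0.952 and 0.950 of their own controls, and the log2 fold change was -0.09 (edgeR adjusted p = 0.792). After removal of the GC trend, the log2 ratios of TIAL1 in these libraries were 0.12, 0.20 and -0.01.

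FMR1, the fragile X protein gene and a repressor of translation, was at 65.8, 74.6 and 42.1 CPM in shDDX3X, against 97.0 and 42.9 CPM in control. Each knockdown library lay below its own control, at ratios of 0.679, 0.769 and 0.981. The log2 fold change was -0.29 ± 0.17 (SE, 95% interval -0.67 to 0.10, edgeR adjusted p = 0.372), and it was -0.03 without the parental library, -0.47 without the vector library and -0.47 without shDDX3X 3. The fits without the vector library and without shDDX3X 3 both leave series A alone to set the contrast, so they are not separate checks. After removal of the GC trend, the log2 ratios of FMR1 to the control of the same series were -0.27, -0.05 and 0.07 in shDDX3X 1, 2 and 3. FXR1, the autosomal relative of FMR1, was at 223.8, 212.2 and 197.2 CPM in shDDX3X, against 291.2 and 185.2 CPM in control. The series A knockdown libraries lay below parental cells and the series B library above vector cells, with a log2 fold change of -0.20 (edgeR adjusted p = 0.523).

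PABPC1 was at 1011, 1163 and 855.4 CPM in shDDX3X, against 978.3 and 994.9 CPM in control. The knockdown libraries lay on both sides of the controls, and the log2 fold change was -0.01 with an interval from -0.43 to 0.41. The 13 pseudogenes named after PABPC1 in the annotation summed to 4.39 to 9.59 CPM per library in reads assigned to them, and how reads common to these copies and PABPC1 were treated is not given in the sources used here. ATXN2 was at 72.8, 75.1 and 87.2 CPM in shDDX3X, against 64.5 and 88.4 CPM in control, a log2 fold change of 0.11 (edgeR adjusted p = 0.742). The kit did not mark the strand, and exons of G3BP1 and ATXN2 overlap opposite-strand genes over 1.05% (ATOX1) and 0.42% (SH2B3) of their length.

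**Figure D2:**
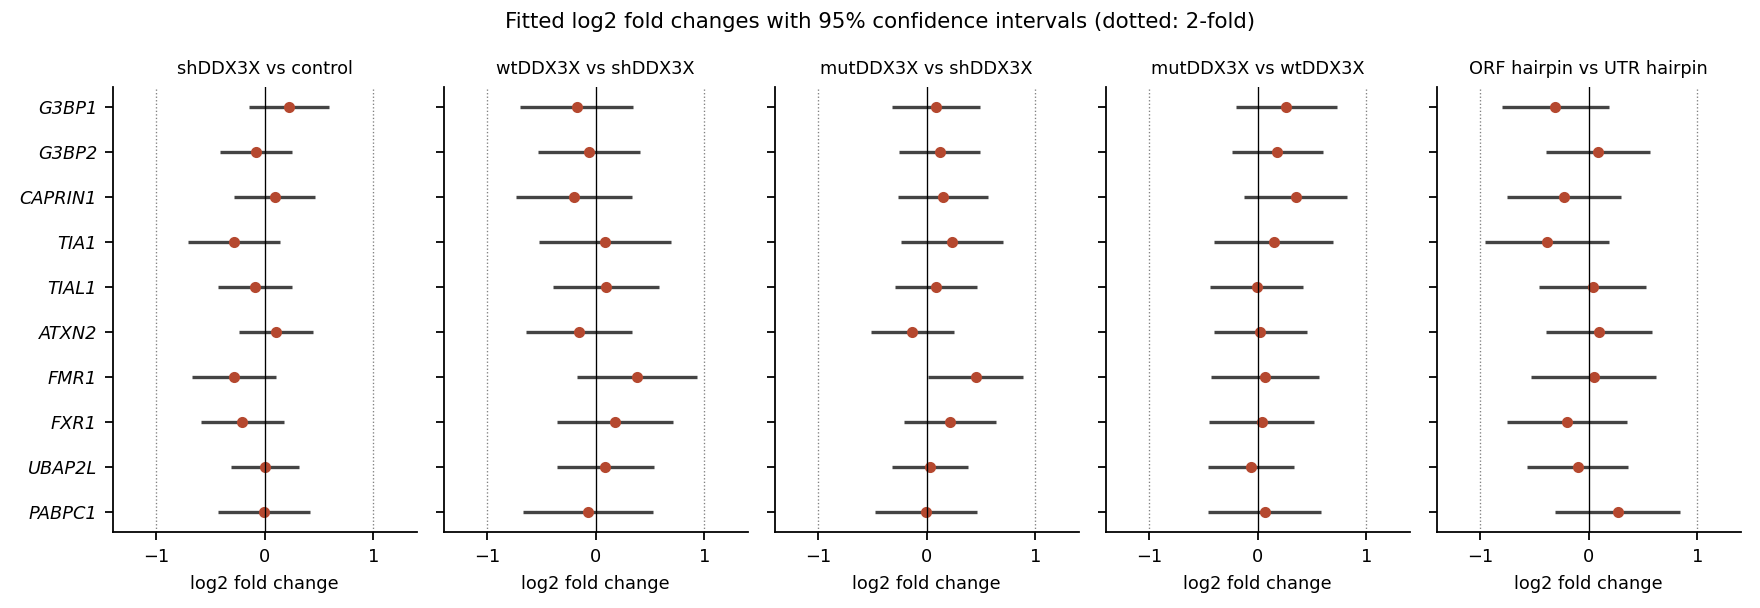
Fitted log2 fold changes (points, horizontal axis) with 95% confidence intervals (lines) of the 10 stress granule genes in 5 comparisons, with dotted lines at a 2-fold change. Every interval lies within the dotted lines, and the interval of FMR1 in mutDDX3X vs shDDX3X, starting at 0.01, is the only one that misses 0.

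The knockdown effect itself was then compared between series and between hairpins. For the difference of the knockdown effects (series B minus series A), 0 of 10 members were called, beside 3.19% of all genes. TIA1 had the largest difference, 0.56 ± 0.34 log2 units (SE, edgeR adjusted p = 0.546), and FXR1 followed at 0.51 (adjusted p = 0.546). PABPC1 was at the other end, at -0.37 (adjusted p = 0.749). This contrast has 1 control library in each series, and only 6 of the 10 intervals lay within 2-fold. For the ORF hairpin (1 library) against the 3' untranslated region hairpin (2 libraries), 0 of 10 members were called, beside 0% of all genes (edgeR called 0 of 16155, DESeq2 87, and 1472 had an unadjusted p below 0.05). The members' log2 fold changes ran from -0.38 (TIA1) to 0.27 (PABPC1).

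**Figure D3:**
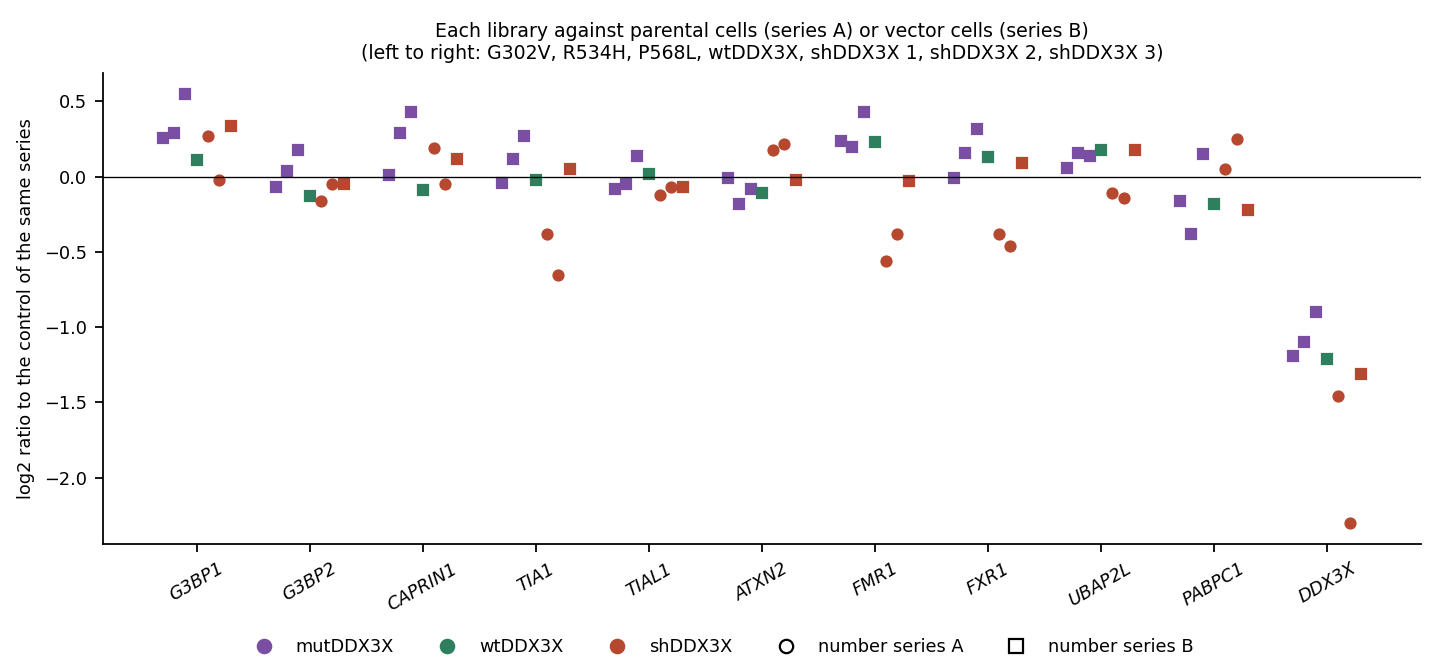
Log2 ratio (vertical axis) of each of the 7 knockdown and re-expression libraries to the control of its own series, for the 10 stress granule genes and DDX3X (horizontal axis); circles are ratios to parental cells, squares ratios to vector cells. The ratios of the stress granule genes lie between -0.65 and 0.55, and those of DDX3X between -2.30 and -0.90.

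Cells labelled as expressing wild type or mutant DDX3X were compared with the knockdown to ask whether granule messages differ from the knockdown there. As given above, DDX3X counts in these libraries were near those of the knockdown. In the comparison of wtDDX3X with shDDX3X, 0 of 10 members were called, beside 0% of all genes (edgeR called 0, DESeq2 3, and 472 had an unadjusted p below 0.05). The single wtDDX3X library is assumed in these fits to vary like the other groups. FMR1 had the largest value, a log2 fold change of 0.38 (95% interval -0.17 to 0.94), with 50.3 CPM in wtDDX3X, against 42.1 CPM in shDDX3X 3, the knockdown library of the same hairpin and series. It lay below shDDX3X 1 and 2, so the direction rests on the series term, and the value was -0.27 without that term and 0.70 without shDDX3X 3. CAPRIN1 was lowest at -0.20, with 457.2 CPM in wtDDX3X, against 529.0 CPM in shDDX3X 3. Set against that library, wtDDX3X was higher for 5 members and lower for 5, at ratios from 0.850 to 1.20.

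In the comparison of mutDDX3X with shDDX3X, 0 of 10 members were called, beside 0% of all genes (edgeR called 0, DESeq2 26, and 894 had an unadjusted p below 0.05). FMR1 was at 50.8, 49.4 and 57.9 CPM in G302V, R534H and P568L, against 65.8, 74.6 and 42.1 CPM in shDDX3X 1, 2 and 3. The mutants lay below both knockdown libraries of series A and above that of series B. With the series term the log2 fold change was 0.45 ± 0.20 (SE, unadjusted p = 0.0444, edgeR adjusted p = 0.831), without it -0.21, and with the GC trend removed 0.26. The other 9 members ran from -0.13 (ATXN2) to 0.23 (TIA1).

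Mutant was compared with wild type in cells that share hairpin, vector and number series. None of the 10 genes was called, beside 0% of all genes (edgeR and DESeq2 called 0, and 315 had an unadjusted p below 0.05). CAPRIN1 was at 490.8, 596.0 and 658.6 CPM in G302V, R534H and P568L, against 457.2 CPM in wtDDX3X. All 3 mutants lay above the wild type library. They lay to 1 side of it for 4 of 10 members, beside 48.95% of all genes. For CAPRIN1 the log2 fold change was 0.35 (95% interval -0.13 to 0.82, edgeR adjusted p = 1). G3BP1 was at 431.9, 439.5 and 529.2 CPM in the mutants, against 388.6 CPM in wtDDX3X, again with all mutants above, at a log2 fold change of 0.26 (edgeR adjusted p = 1). G3BP2 showed the same order, with 126.4, 136.6 and 150.0 CPM in the mutants, against 121.5 CPM in wtDDX3X, at 0.18 (edgeR adjusted p = 1).

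The mutants were also read one by one. P568L lay above wtDDX3X for 9 of 10 members (median log2 ratio 0.24, highest 0.53 for CAPRIN1) and above vector cells for 9 (median log2 ratio 0.22, highest 0.55 for G3BP1). R534H was above wtDDX3X for 5 members and G302V for 6, with medians of 0.00 and 0.02. PABPC1 was at 1103 CPM in P568L but at 892.8 and 764.6 CPM in G302V and R534H, and the R534H value was its lowest of all 9 libraries. P568L was also the only series B library whose levels fell with GC content across genes (Spearman correlation -0.113 over 11590 genes, against 0.382 to 0.575 in the other 5), and 7 of the 10 members have a GC content below the 48.2% of the median gene tested. With the GC trend removed, the log2 ratio of P568L to wtDDX3X was 0.39 for CAPRIN1, 0.23 for G3BP1 and 0.35 for PABPC1, and it was between -0.08 and 0.13 for the other 7. Each mutant is 1 library, so these ratios carry no test.

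Against control, 0 of 10 members were called in mutDDX3X, beside 0.0186% of all genes, and 0 of 10 in wtDDX3X, beside 0% of all genes (edgeR called 0, DESeq2 5, and 712 had an unadjusted p below 0.05). These comparisons share the control libraries with that of the knockdown. G3BP1 had the highest member value in mutDDX3X, a log2 fold change of 0.31 (95% interval -0.10 to 0.73, edgeR adjusted p = 0.545). In wtDDX3X the members ran from -0.19 (TIA1) to 0.10 (FMR1).

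The number series were also compared, a contrast added after the data were seen. In series B, FMR1 was lower than in series A (log2 fold change -0.93 ± 0.18 SE, a fold of 0.526, edgeR adjusted p = 0.0183), and so was G3BP2 (-0.58 ± 0.15 SE, 0.668, adjusted p = 0.0391). That made 2 of 10 members called, beside 11.3% of all genes (1818). FMR1 was at 42.1 to 57.9 CPM in the 6 libraries of series B and at 65.8 to 97.0 CPM in the 3 of series A, without overlap, and G3BP2 was at 121.5 to 150.0 CPM in series B and at 181.4 to 203.2 CPM in series A, again without overlap. TIAL1 and ATXN2 did not overlap between series either, which made 4 of 10 members, beside 23.8% of all genes. The wtDDX3X and mutDDX3X libraries and the vector control all lie in series B, and the parental control lies in series A. These ranges therefore mix series with construct and type of control. The fitted values rest on the groups found in both series, control and shDDX3X. TIA1 (-0.48, adjusted p = 0.125), FXR1 (-0.36, 0.184) and TIAL1 (-0.34, 0.158) had lower values in series B without being called, and ATXN2 (0.33, 0.169) a higher one. FMR1 has the lowest transcript GC content of the members, 35.7%, and ATXN2 the highest, 52.2%. With each library's GC trend removed, neither gene was called (FMR1 -0.39, adjusted p = 0.187; G3BP2 -0.27, adjusted p = 0.296). G3BP2 was also not called when any single library of control, shDDX3X or mutDDX3X was left out (adjusted p = 0.0558 to 0.143), with its log2 fold change between -0.62 and -0.56. FMR1 was not called without the parental control (0.0964) or without the vector control (0.0927). Mutant libraries lie only in series B, so leaving 1 of them out hardly moves the fitted difference. Leaving out either control leaves the shDDX3X libraries alone to set that difference. These fits are therefore not separate checks. The unaligned share separated the series in full, so its part and that of the series cannot be told apart. The correlation of level with GC content was also lower in series A (-0.711 to -0.195) than in series B (-0.113 to 0.575), without overlap. It was lowest in parental cells within series A and in P568L within series B.

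**Figure D4:**
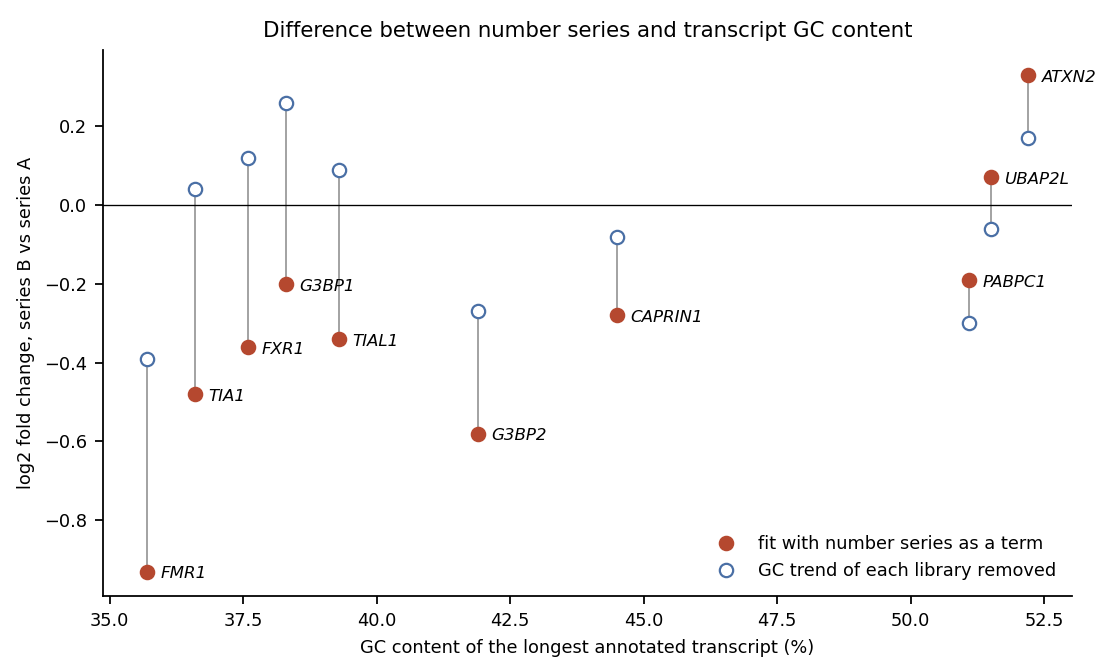
Log2 fold change between series B and series A (vertical axis) against transcript GC content in percent (horizontal axis) for the 10 stress granule genes; filled points are from the fit with series as a term and open points from the fit with each library's GC trend removed. FMR1 stands at -0.93 filled and -0.39 open, and TIA1 at -0.48 filled and 0.04 open.

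Ratios within pairs of related genes were read in each library, which removes the library's scaling but not its GC trend. G3BP1 relative to G3BP2 was at 3.42, 3.22 and 3.53 in G302V, R534H and P568L, at 3.20 in wtDDX3X and at 3.01, 2.27 and 3.57 in shDDX3X 1, 2 and 3, against 2.22 and 2.71 in parental and vector cells (ratios of CPM, not corrected for length). Every one of the 7 libraries lay above the control of its own series, shDDX3X 2 by only 0.03 log2 units and the other knockdown libraries by 0.44 and 0.39. shDDX3X 1 and 2 share the parental control and the other libraries share the vector control. A low value in either control would place all its libraries above it, so these are not separate comparisons. The means of the log2 ratios were 1.76 ± 0.07 in mutDDX3X (SD, n = 3), 1.53 ± 0.33 in shDDX3X (SD, n = 3) and 1.30 ± 0.20 in control (SD, n = 2). With 3 libraries against 2 an exact permutation test cannot pass 0.05, and none was run.

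TIA1 relative to TIAL1 was at 0.855, 0.685 and 0.823 in shDDX3X, against 1.02 and 0.755 in control, and the parental library was the highest of the 9. FXR2, the third gene of the FMR1 family, relative to FXR1 was at 0.472, 0.405 and 0.603 in shDDX3X, against 0.229 and 0.530 in control. This ratio ranged from 0.467 to 0.654 in series B and from 0.229 to 0.472 in series A, and with the GC trend removed from 0.440 to 0.503 in series B and from 0.484 to 0.587 in series A. ATXN2 relative to ATXN2L was at 0.356, 0.378 and 0.338 in shDDX3X, against 0.537 and 0.339 in control, the parental library alone standing above 0.378. With the GC trend removed, series A ranged from 0.322 to 0.378, and the log2 difference of shDDX3X and control was 0.09, against -0.26 before. PABPC1 relative to PABPC4, another cytoplasmic poly(A)-binding protein, was at 4.58, 4.69 and 4.11 in shDDX3X, against 6.45 and 4.78 in control, and each knockdown library was below its own control. The differences were -0.49, -0.46 and -0.22 log2 units.

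**Figure D5:**
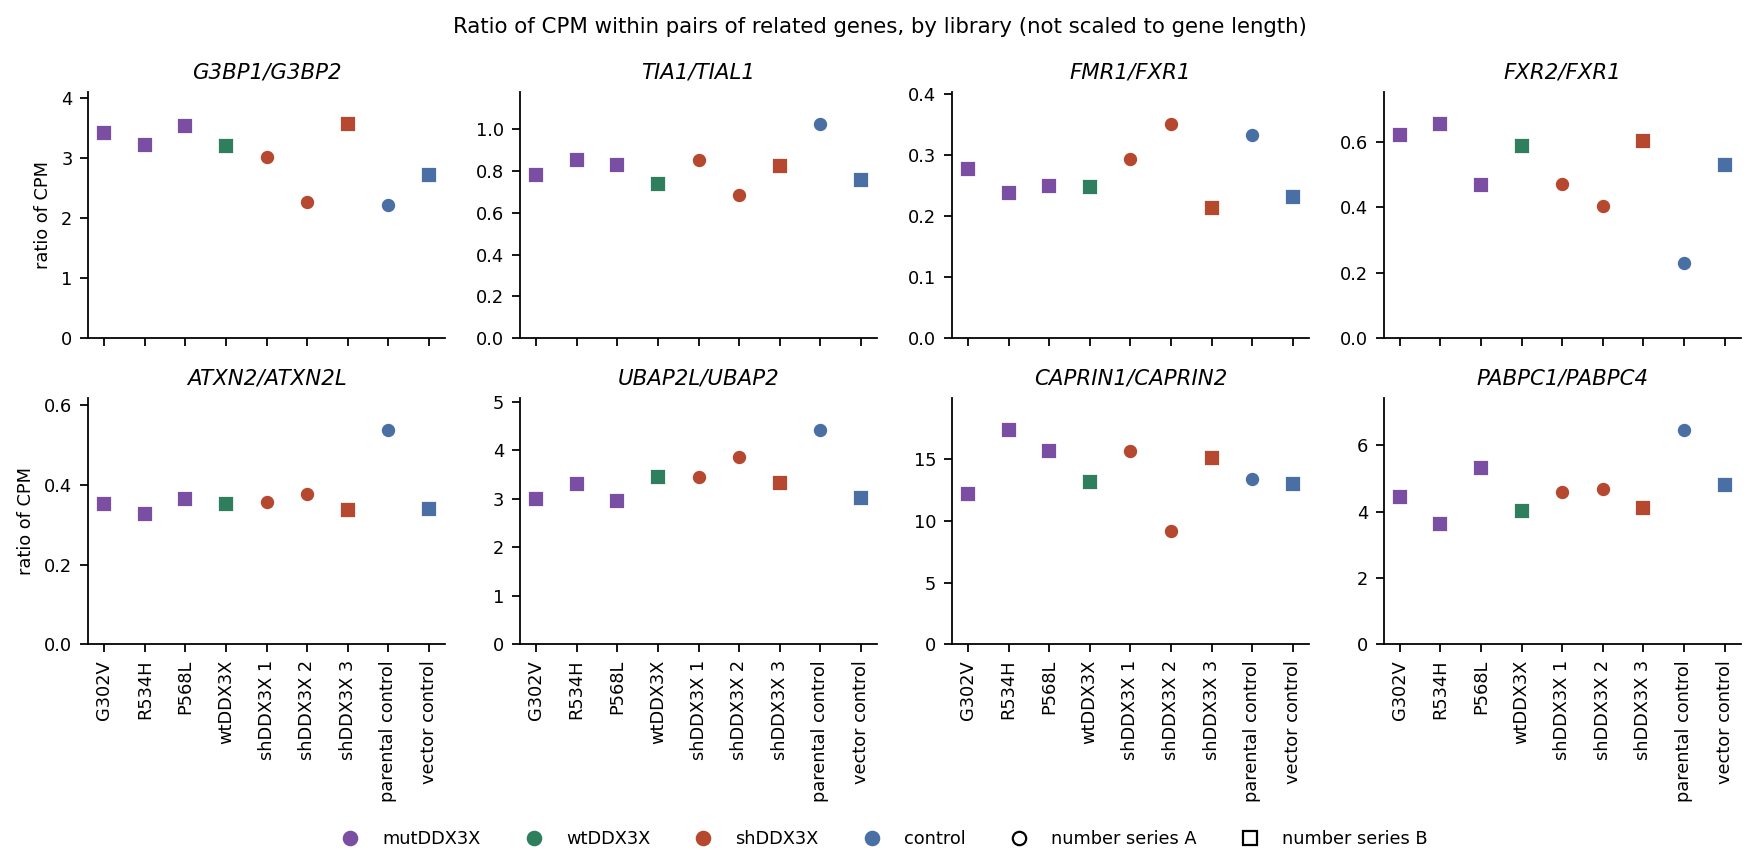
Ratio of CPM within 8 pairs of related genes (vertical axes, starting at 0, not corrected for gene length) in each of the 9 libraries (horizontal axes), coloured by group, with circles for series A and squares for series B. G3BP1/G3BP2 is lowest in the parental control at 2.22, and FXR2/FXR1, ATXN2/ATXN2L and PABPC1/PABPC4 each set the parental control apart at 0.229, 0.537 and 6.45.

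The genes around the core were read from lists in the same fit of knockdown against control. Of 10 relatives and direct partners (such as USP10, the G3BP-binding deubiquitinase), 9 had higher and 1 lower values and none was called by edgeR or DESeq2, with a median log2 fold change of 0.14 (-0.01 for all genes). FXR2 (0.42, adjusted p = 0.21) and ATXN2L (0.42, adjusted p = 0.233) had the smallest p. With the GC trend removed they were at 0.02 and -0.09. Of 55 other RNA-binding proteins of granules, 30 had higher and 25 lower values, with a median of 0.02 and none called by edgeR. DESeq2 called 7 of the 55 in the same comparison, which is 12.7%, beside 9.7% of all genes to which it gave an adjusted p. With edgeR, 27.3% of the 55 and 10% of the relatives and partners had an unadjusted p below 0.05, beside 22% of all genes. IGF2BP1, which binds and stabilises messages, was at 254.8, 255.1 and 257.3 CPM in shDDX3X, against 145.6 and 152.4 CPM in control. These groups did not overlap, and the log2 fold change of 0.79 ± 0.16 (SE) missed the threshold (edgeR adjusted p = 0.0533). It lay between 0.72 and 0.81 under 16 other settings, 5 of which called it. IGF2BP1 was named for its small p in this comparison, and the settings reuse the same libraries, so these calls are no separate support. Those without the vector control and without shDDX3X 3 both rest on series A alone. HNRNPA1, a nuclear splicing factor that enters granules, was at 790.7, 886.3 and 844.9 CPM in shDDX3X, against 1281 and 1181 CPM in control (-0.56 ± 0.14 SE, edgeR adjusted p = 0.0819), and 2 of 16 other settings called it.

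Of 33 genes of processing bodies, the cytoplasmic sites that hold decapping enzymes, 20 had higher and 13 lower values, with a median of 0.04. None was called by edgeR, and 16 had an unadjusted p below 0.05, which is 48.5%, beside 22% of all genes. DESeq2 called 2, which is 6.06%, beside 9.7% of all genes to which it gave an adjusted p. The decapping enzyme DCP2 was at 98.8, 86.2 and 69.4 CPM in shDDX3X, against 65.9 and 38.5 CPM in control (0.64, edgeR adjusted p = 0.0876, called in 3 of 16 other settings), and the decapping cofactor DCP1B was at 13.8, 13.2 and 14.5 CPM in shDDX3X, against 21.4 and 26.5 CPM in control (-0.75, adjusted p = 0.0909). Of 35 genes for granule signalling and clearance, 24 had higher and 11 lower values, with a median of 0.14 and none called by edgeR. DESeq2 called 7 of them, which is 20%, beside the same 9.7%. With edgeR, 28.6% had an unadjusted p below 0.05, beside 22% of all genes. The autophagy receptor SQSTM1 was at 408.1, 284.0 and 734.3 CPM in shDDX3X, against 177.8 and 363.9 CPM in control (0.98 ± 0.19 SE, edgeR adjusted p = 0.0511), higher in each knockdown library than in its own control. Its value ran from 0.42 to 1.10 under 16 other settings, 5 of which called it. The autophagy kinase ULK1 was at 96.9, 91.0 and 154.8 CPM in shDDX3X, against 15.0 and 105.7 CPM in control (1.67 ± 0.41 SE, adjusted p = 0.072). Its value ran from 0.55 to 2.65 under 16 other settings, 4 of which called it, and was 0.87 with the GC trend removed. SQSTM1 and ULK1 were also named for their small p. Both were called without the vector control and without shDDX3X 3, settings that rest on series A alone and are not separate checks.

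The knockdown effect differed between series for 5 of these 133 surrounding genes, 3.76%, beside 3.19% of all genes (edgeR, series B minus series A), a share near that of all genes. They were MCRIP1 (-5.36, adjusted p = 0.00448), MCRIP2 (-3.73, adjusted p = 0.00362), PCBP1 (-1.37, adjusted p = 0.0285), AJUBA (-1.72, adjusted p = 0.0311) and ULK1 (-2.10, adjusted p = 0.0048). In each of them the parental control had the lowest value of the 9 libraries. MCRIP1 was at 0.0779 CPM there, below the limit that 3 counts set (0.238 CPM), against 6.28 to 22.9 CPM in the other 8, so its fitted value depends on the prior count and is no measure of size. With each library's GC trend removed, none of the 5 was called (adjusted p = 0.0665, 0.0609, 0.121, 0.144 and 0.386 in the same order), and the value of ULK1 was -0.75.

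As a description, the genes whose log2 CPM over the 9 libraries, centred within each series, ran most like a member were found by Pearson correlation among 11590 genes with a mean of at least 5 CPM. The nearest was CEP120 for G3BP1 (0.974), BPTF for G3BP2 (0.963), MRPL44 for CAPRIN1 (0.973) and FDFT1 for UBAP2L (0.970). For TIA1 it was CREB1 (0.986), for TIAL1 PUS7L (0.981), for FMR1 IMPA1 (0.983) and for FXR1 PDCL (0.982). For PABPC1 it was CHUK (0.957) and for ATXN2 SWI5 (0.968). Among the members themselves the closest pair was TIA1 and FXR1 at 0.936, followed by G3BP1 and CAPRIN1 at 0.857. The libraries share depth and GC trends, so these values give likeness across 9 libraries and no more.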

How the data were processed

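The authors deposited raw whole-number counts per gene for 57820 versioned identifiers in each of 9 libraries. The libraries were TruSeq version 2.0 from poly(A) RNA with single-end reads, per the labels' protocols. HISAT2, HTSeq, bcl2fastq and DESeq2 and the builds GRCh37 and hg19 are named in the submitters' processing notes, with no versions given in the sources used here. The 5 summary lines per table (20.3% to 35.8% of reads) stayed out of library sizes and tests.

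Symbols matched 90.5% of identifiers in GENCODE v29, which also gave exon lengths and transcript GC content. That annotation is on another build, so no coordinates are given. Counts were fitted with edgeR 4.0.16 (R 4.3.3; robust quasi-likelihood, TMM, group and number series as terms, 4 residual degrees of freedom, 3 when hairpins or series were split), with Benjamini-Hochberg adjustment and calls at 0.05. The fit was run on simulated counts with planted changes. Those counts had no series difference and no GC trend, so they do not test the fit under either. No library was a copy of another of its group (chi-square of their counts 11.2 to 96.3 per degree of freedom). Alternatives were no TMM, no filter, a mean of at least 5 CPM, no series term, DESeq2 1.42.0 and a GC trend removed by library. Others were only the groups compared, a replicate block, and each library except wtDDX3X left out in turn. The members and the lists were chosen with earlier results of these data known. Named genes are all members, the list genes called (up to 4) or, where none was called between knockdown and control, those with the smallest p (2 per list), and the genes most like each member.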

Additional observations from a re-analysis of the deposited data

Results flagged for a closer look

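The knockdown effect of 5 genes around the granule core differed between series by the test of that difference (edgeR, series B minus series A, 1 control library in each series). They are 5 of 133 genes tested in these lists, beside 3.19% of all genes, and none of them was called once each library's GC trend was removed (adjusted p = 0.0609 to 0.386). The fitted log2 difference was -5.36 for MCRIP1, which is no measure of size because its parental value lies under the 3-count limit, -3.73 for MCRIP2, -1.37 for PCBP1, -1.72 for AJUBA and -2.10 for ULK1, which was -0.75 with the GC trend removed. For PCBP1, an RNA-binding protein, the levels were 174.1 CPM in shDDX3X 3, against 195.2 CPM in vector cells, and 152.0 and 147.0 CPM in shDDX3X 1 and 2, against 64.9 CPM in parental cells. For MCRIP2 they were 14.5 CPM in shDDX3X 3, against 13.7 CPM in vector cells, and 10.4 and 11.8 CPM in shDDX3X 1 and 2, against 0.780 CPM in parental cells. AJUBA, a LIM domain scaffold protein, was at 66.1 CPM in shDDX3X 3, against 90.1 CPM in vector cells, and at 84.0 and 107.7 CPM in shDDX3X 1 and 2, against 39.7 CPM in parental cells.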

How the results depend on the processing

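Across 1200 values of the 10 members under other settings, no called value turned its sign, and log2 fold changes ran from -1.18 to 0.76; 134 values of uncalled genes changed sign. The count of members called stayed at 0 in each of the 8 planned comparisons under every setting run, DESeq2 included. Between number series it was 2, but 0 with the GC trend removed and 0 to 1 with 1 library left out; the cause was not tested. Replicate numbers are shared by only 2 pairs of shDDX3X and control libraries, whose deviations from their group means correlated at 0.392 and -0.287. The deviations of 2 controls from their own mean mirror each other, so these values cannot decide whether the numbers pair libraries. The vector control and shDDX3X 3, both of series B, correlated at 0.491. With a replicate block 0 members were called, and 0 genes in all. Counts over all genes moved more. For shDDX3X vs control, 109 became 1920 with no filter, 17 at a mean of at least 5 CPM, 6 with no series term, 289 with the GC trend removed, 1324 by DESeq2, 0 with only the groups compared, and 1 to 2087 with 1 library left out. Between number series 1818 became 3365 with no filter, 507 with the GC trend removed and 493 to 2195 with 1 library left out. For the difference of knockdown effects 516 became 1037 with no filter and 33 with the GC trend removed. For mutDDX3X vs control 3 became 658 with no filter, 1 at a mean of at least 5 CPM, 23 with the GC trend removed, 163 by DESeq2, 401 with only the groups compared and 0 to 774 with 1 library left out. Where edgeR called 0 genes, no filter gave 57 (wtDDX3X vs shDDX3X), 166 (mutDDX3X vs shDDX3X), 36 (mutDDX3X vs wtDDX3X), 52 (wtDDX3X vs control) and 292 (the hairpins), and leaving out 1 library gave up to 596, 996, 0, 607 and 925 in the same order. With only the groups compared, wtDDX3X and mutDDX3X each had 1 gene against shDDX3X. Removing GC trends gave the hairpins 26. With only the groups compared, wtDDX3X vs control and the hairpins could not be fitted, nor could the hairpins without shDDX3X 2, the only ORF library. At these depths and group sizes, changes inside a member's own interval are left undecided. In the planned comparisons, fitted before any setting was changed, these intervals lay within 2-fold, except in the difference of knockdown effects, where those of 4 of the 10 reached beyond it. Other settings could widen them. For FMR1 in mutDDX3X vs shDDX3X, 0.45 ± 0.20 (SE) became 0.76 ± 0.30 (SE) without shDDX3X 3. The 2-fold limit therefore holds for the unchanged settings only.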
